A study of Schmidtea polychroa with 132 samples.

Results

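Embryos of Schmidtea polychroa at stages 2 and 3 were compared with yolk, to describe which transcripts the early embryo holds above the yolk cells that surround it. The members were taken from the stage and yolk labels alone: 51 early embryo libraries, 29 of stage 2 and 22 of stage 3, against 4 libraries labelled yolk, out of 132 libraries in all. Egg capsules stood at 20 °C until they were opened, at times spread through 15 days of development. Each embryo was frozen and sequenced singly by CEL-Seq, which barcodes RNA and counts reads near the 3′ end of polyadenylated transcripts. The animals came from a laboratory population, and the labels name no strain and no treatment. The yolk libraries carry the same tissue label as the embryos, and the amount of yolk that went into each is not given in the sources used here. No capsule of origin is given either, so embryos of the same capsule cannot be recognised, and the p-values measure only the spread between these libraries. These libraries fall into 2 ranges of sample number, up to 32 and 105 and above. The lower range held 27 early embryos and 1 yolk library (yolk replicate 1), and the upper range held 24 and 3 (yolk replicates 2, 3 and 4). Every main test over both ranges carried a term for them, and alternatives without it are named as such.

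Planarian eggs are unusual in that the egg cell itself stores little yolk. The capsule instead packs zygotes together with a large number of separate maternal yolk cells, and the first blastomeres divide scattered among fused and broken yolk cells. The early embryo then builds a temporary pharynx and gut with which it swallows the remaining yolk. An embryo lifted from a capsule at these stages can therefore carry yolk cell RNA along with its own, and RNA of the 2 sources cannot be told apart in a whole-embryo library. Less RNA of a kind per cell and fewer cells of a kind also cannot be told apart. The deposited IDs are not paired with gene names, so planarian markers of blastomeres, yolk cells and gut could not be checked, and transcripts are given by ID with no role.

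Transcript counts per library ranged from 14491 to 1031677 in the embryos, and were 76822, 287893, 343422 and 524497 in the yolk libraries. Levels are given as CPM, a library's counts scaled to a common total, with TMM factors (TMM-scaled CPM). The factors came from the early embryo and yolk libraries, and from all 132 libraries for levels at other stages and comparisons across stages. Such levels measure a transcript's share of the library, not its amount. No pair of libraries was identical (643 pairs within groups were compared, and the lowest chi-square per degree of freedom was 6.06). The spike-ins, synthetic RNAs of known sequence, also differed between embryos and yolk in their proportions to each other, with 34 of 79 tested called (43.0%) by edgeR's quasi-likelihood test, 13 higher in embryos and 21 higher in yolk. The part of this in the results on transcripts was not tested.

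The early embryo libraries held far fewer transcript counts per spike-in count than the yolk. On the log2 scale, the ratio of transcript to spike-in counts in the lower range of numbers ran from -4.19 to 0.89 in the embryos, with a median of -2.26, and was 2.55 in the yolk library. In the upper range it ran from 0.58 to 5.30 in the embryos, with a median of 3.42, and was 5.73, 5.68 and 6.28 in the yolk libraries. The groups did not overlap within either range, since 0 of 51 embryos reached the lowest yolk library of its range. Within ranges the embryos lay lower by a mean log2 difference of -3.10, which is 8.60-fold lower (exact permutation test within ranges, two-sided, p = 1.221e-05, the smallest this design can give; Benjamini-Hochberg adjusted p = 3.663e-05 over 3 tests on single values). In the upper range alone the log2 difference was -2.58 (exact permutation test, two-sided, p = 0.001026). The ratio also varied among the embryos themselves, from 0.0549 to 39.4 transcript counts per spike-in count, a 718-fold span that includes the step between ranges. How much RNA an input held, and how much yolk was taken, cannot be told apart here from the group.

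**Figure D1:**
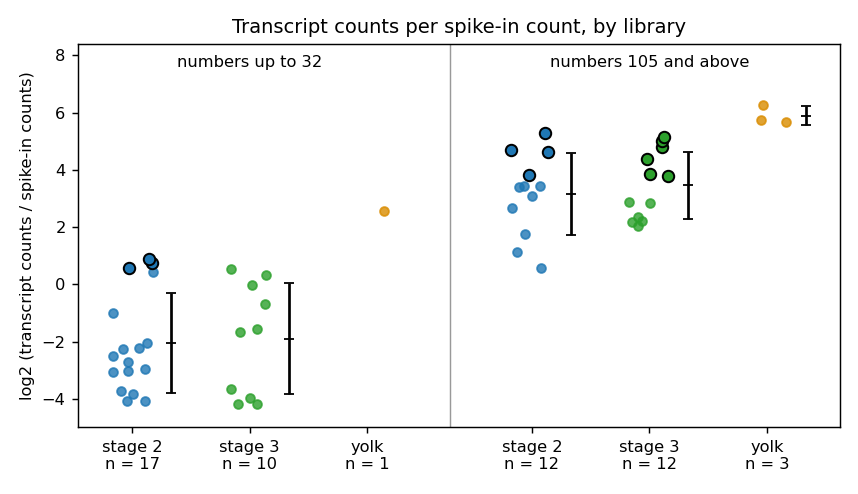
Log2 ratio of transcript to spike-in counts (vertical axis) for each stage 2, stage 3 and yolk library, split by the range of sample numbers. Points are libraries, bars are mean ± SD where there is more than 1 library, and black outlines mark the 13 embryo libraries within 4-fold of the lowest yolk library of their range; every embryo lies below the yolk of its range.

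At a common depth the numbers of transcripts found in embryos and yolk overlapped. After each was thinned to 14491 counts, 2981 ± 422 transcripts (SD, n = 51) had at least 1 count in the embryos and 3135 ± 260 (SD, n = 4) in the yolk, a difference within ranges of -123 (exact permutation test, two-sided, p = 0.559, adjusted p = 0.559). The 50 highest transcripts of each library held 36.4% ± 8.01 (SD, n = 51) of its counts in the embryos and 44.2% ± 6.74 (SD, n = 4) in the yolk, a difference of -6.21 percentage points (exact permutation test, two-sided, p = 0.103, adjusted p = 0.154). Neither difference passed the threshold.

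Over all 51 embryos, edgeR called very few single transcripts different from yolk, and DESeq2 called more. Of 5538 transcripts tested by edgeR's quasi-likelihood test, 0 were called higher in embryos and 2 higher in yolk (0.0361% in all) at an adjusted p under 0.05. At an unadjusted p under 0.05 there were 1011, of which 807 were higher in embryos and 204 in yolk. DESeq2 on the same counts called 262 higher in embryos (4.73%) and 55 higher in yolk (0.993%), or 5.72% in all. The cause of the gap between the tools was not tested. The median log2 fold change of all tested transcripts was 0.19 with TMM factors and -0.09 with RLE size factors. It was -2.32 with spike-in totals as library sizes, under which 2767 transcripts were called higher in yolk and 2 higher in embryos. All levels below are relative to the library's transcripts, so they describe composition. Within the upper range alone edgeR called 0 of 6385 (661 at an unadjusted p under 0.05), and DESeq2 called 264 higher in embryos and 7 in yolk. No transcript's difference from yolk was called to depend on the range (0 of 5538 by edgeR's interaction term, 100 at an unadjusted p under 0.05), a weak test with 1 yolk library in the lower range.

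Both calls were transcripts rich in yolk. FW_v1_tr_08674 stood at 2258, 671, 788 and 761 TMM-scaled CPM in yolk replicates 1 to 4. In the 51 embryos it ran from 0 to 614 with a median of 187.5. All 51 embryos lay below the lowest yolk library (log2 fold change -2.57, SE 0.50, edgeR adjusted p = 0.0141). FW_v1_tr_14087 stood at 1223, 212, 281 and 255 in yolk replicates 1 to 4. In the embryos it ran from 0 to 368 with a median of 72.9, and 46 of 51 embryos lay below the lowest yolk library (log2 fold change -2.60, SE 0.55, edgeR adjusted p = 0.0290). In both, yolk replicate 1, the library from the lower range, stood well above the other 3. Without it the log2 fold changes were -1.23 and -1.05 and neither was called (edgeR adjusted p = 0.513 and 0.687). Without replicates 2, 3 and 4 in turn, 9, 4 and 5 transcripts were called higher in yolk. In the later embryos of stage 7, FW_v1_tr_08674 averaged 470 ± 94.0 CPM (SD, n = 16) and FW_v1_tr_14087 averaged 32.0 ± 21.0 (SD, n = 16).

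Against stage 2 alone, 8 of 3709 tested transcripts were called higher in the embryos (0.216%) and 3 higher in yolk (0.0809%; 0.297% in all; 751 at an unadjusted p under 0.05, and 257 and 63 by DESeq2). The 8 that rose had log2 fold changes of 3.59 to 7.53. Each was detected in at least 24 of 29 stage 2 libraries. Their log2 fold changes in the comparison of stage 3 with the same yolk libraries were 2.11 to 5.17, and none was called there. The difference between the stages was not tested. The example with the highest level apart from a transcript that goes with the spike-ins was FW_v1_tr_12089. It ran from 167 to 7570 TMM-scaled CPM in stage 2 with a median of 2089, and stood at 106 in yolk replicate 1 and at 0 in the other 3. All 29 stage 2 libraries lay above the highest yolk library (log2 fold change 7.09, SE 1.57, edgeR adjusted p = 0.0408). In stage 3 it ran from 55.3 to 2084 with a median of 342, still above every yolk library in 19 of 22. Its mean was lower at other stages. It averaged 286 ± 231 CPM (SD) over the 6 libraries of stage 1, 126.5 ± 145 over the 10 of stage 4 and 2.21 ± 4.16 over the 15 of stage 8.

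FW_v1_tr_05647 was called higher in stage 2 but followed the spike-ins. It ran from 375 to 107024 CPM in stage 2 with a median of 5929, and stood at 1082, 195, 152 and 94.1 in yolk replicates 1 to 4 (log2 fold change 3.59, SE 0.84, edgeR adjusted p = 0.0469). Per 1000 spike-in counts, the embryos held 1.32 to 20.0 counts of it, with a median of 4.90, and the yolk libraries 5.02 to 10.3 with a median of 6.95. On that scale the groups overlapped, and with spike-in totals as library sizes the log2 fold change over all early embryos was -0.36. Of 1499 transcripts with enough counts to examine, 13 varied less per spike-in count than per transcript count. These 13 included the 3 transcripts left out from the start, 2 of the 8 that rose in stage 2 and 0 of the 8 that rose in stage 3.

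Among the 3 transcripts called lower in stage 2 than in yolk was FW_v1_tr_08674. FW_v1_tr_12478 was an abundant yolk transcript, at 6611, 3492, 18178 and 16613 CPM in yolk replicates 1 to 4. It ran from 242 to 8748 in stage 2 with a median of 2122, and 23 of 29 stage 2 libraries lay below the lowest yolk library (log2 fold change -1.93, SE 0.44, edgeR adjusted p = 0.0408). Its mean level was lower at later stages, at 724 ± 362 CPM at stage 4 (SD, 10 libraries) and 18.3 ± 15.8 at stage 7 (SD, 16 libraries). FW_v1_tr_06595 belongs to the library labelled protist, of which it made 22.6%. It was found in 27 of 27 lower-range and 4 of 24 upper-range embryos, and stood at 659, 10.4, 103 and 36.0 CPM in yolk replicates 1 to 4. Its fitted log2 fold change was -4.66 (SE 0.83, edgeR adjusted p = 0.00355), although its mean was higher in stage 2 (387 ± 640, SD, n = 29) than in yolk (202 ± 307, SD, n = 4). Without the term for sample number the value was 1.01. Its direction therefore depends on whether the ranges are kept apart. In the upper range it was found in no stage 2 library and in all 3 yolk libraries. In the lower range it ran from 114 to 2728 CPM in stage 2, on both sides of the 659 of yolk replicate 1. Transcripts high in the protist library (113 in all, by a rule on that library) made up at most 6.15% of an early embryo library and averaged 0.178% of the yolk libraries.

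Against stage 3 alone, 8 of 5349 tested transcripts were called higher in the embryos (0.15%) and 5 higher in yolk (0.0935%; 0.243% in all; 1074 at an unadjusted p under 0.05, and 546 and 66 by DESeq2). The 8 that rose had log2 fold changes of 5.61 to 8.32, and each was found in at least 21 of 22 stage 3 libraries. In the comparison of stage 2 with the same yolk libraries their log2 fold changes were 5.50 to 9.00, and none was called there. FW_v1_tr_11088 ran from 27.1 to 8733 CPM in stage 3 with a median of 1761, and stood at 94.1, 0, 0 and 22.1 in yolk replicates 1 to 4. It lay above every yolk library in 20 of 22 stage 3 libraries (log2 fold change 7.11, SE 1.55, edgeR adjusted p = 0.0318). FW_v1_tr_05691 ran from 115 to 4128 in stage 3 with a median of 734, and stood at 106, 0, 0 and 8.30 in yolk replicates 1 to 4. All 22 stage 3 libraries lay above the highest yolk library (log2 fold change 6.54, SE 1.35, edgeR adjusted p = 0.0318). Both were still present at stage 4 and near 0 at stage 8: FW_v1_tr_11088 averaged 1253 ± 800 CPM (SD, n = 10) and 9.42 ± 16.4 (SD, n = 15), and FW_v1_tr_05691 averaged 1144 ± 995 and 0.654 ± 1.52 in the same libraries.

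Of the 5 transcripts called lower in stage 3 than in yolk, 2 were those called over all early embryos. FW_v1_tr_07044, among the most abundant, stood at 12375, 9807, 26630 and 41915 CPM in yolk replicates 1 to 4. It ran from 935 to 21464 in stage 3 with a median of 4933, and 20 of 22 stage 3 libraries lay below the lowest yolk library (log2 fold change -1.78, SE 0.40, edgeR adjusted p = 0.0331). FW_v1_tr_11467 stood at 435, 306, 596 and 1179 in yolk. It ran from 0 to 699.6 in stage 3 with a median of 48.6, again below the lowest yolk library in 20 of 22 (log2 fold change -2.49, SE 0.55, edgeR adjusted p = 0.0318). The calls of both stages changed when single yolk libraries were left out. Without replicates 1 to 4 in turn, stage 2 had 5, 0, 0 and 0 calls higher in embryos, and stage 3 had 18, 3, 0 and 0. The counts higher in yolk were 2, 4, 0 and 1 for stage 2 and 0, 18, 2 and 2 for stage 3.

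**Figure D2:**
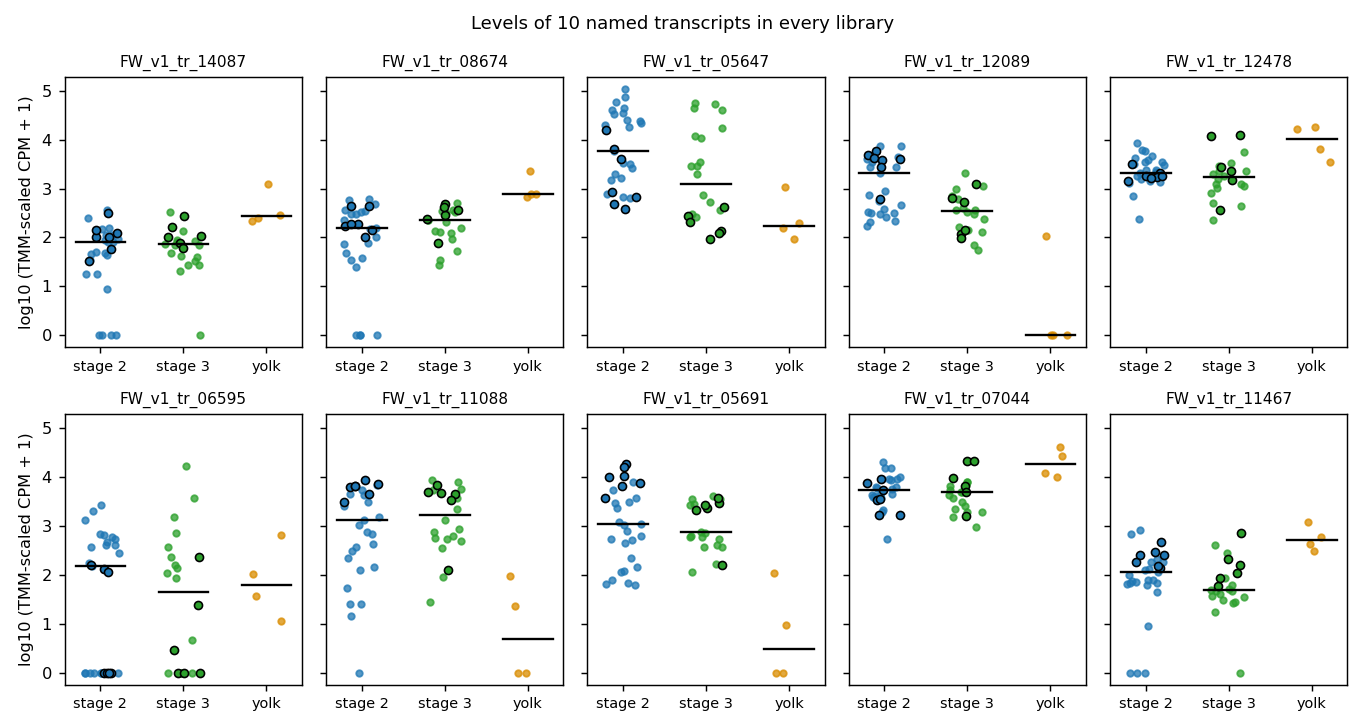
Log10 of TMM-scaled CPM + 1 (vertical axis) of 10 transcripts in every stage 2, stage 3 and yolk library, where points are libraries, lines are group medians and black outlines mark the 13 embryo libraries within 4-fold of the yolk ratio. FW_v1_tr_12089, FW_v1_tr_11088 and FW_v1_tr_05691 stand at 0 in 2 or 3 yolk libraries and high in most embryos, and FW_v1_tr_08674 lies below the lowest yolk library in all 51.

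A comparison chosen after seeing the data kept only embryos whose transcript counts per spike-in count lay within 4-fold of the lowest yolk library of their range. It retained 13 embryo libraries, 7 of stage 2 and 6 of stage 3, with 3 from the lower and 10 from the upper range. These 13 held 271281 to 1031677 transcript counts each, and the other 38 held 14491 to 518469. Depth thus went with the ratio, and the part of each in the calls was not tested. The last library inside the limit lay 2.00 below that yolk library on the log2 scale, and the first outside lay 2.01 below. In this comparison edgeR called 1239 of 6219 transcripts higher in embryos (19.9%) and 160 higher in yolk (2.57%), 22.5% in all. A fit of all 51 embryos with the log2 ratio as a covariate, also chosen after seeing the data, called 1279 and 113 of 5538. Since no embryo reaches the yolk ratio, that fit extrapolates. DESeq2 called 1711 and 225 in the 13 libraries. With spike-in totals as library sizes the counts were 413 and 2759, and the median of all tested transcripts moved from 0.33 to -1.41 on the log2 scale. With the limit at 8-fold, which kept 24 embryos, they were 498 and 105. Without yolk replicates 1 to 4 in turn, 824, 840, 781 and 1044 transcripts were called higher in the 13 embryos and 19, 56, 25 and 58 higher in yolk.

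**Figure D3:**
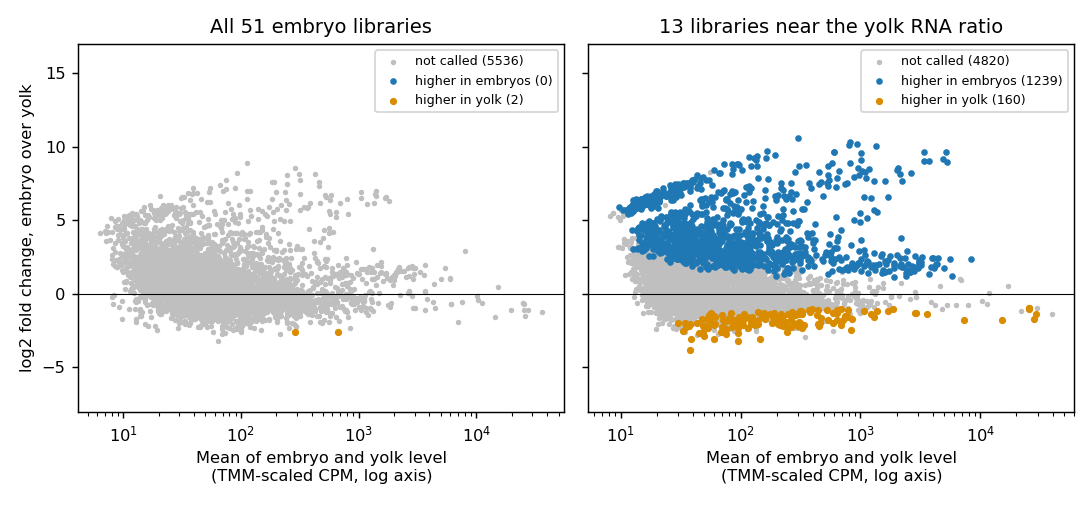
Log2 fold change of embryo over yolk (vertical axis) against the mean of the embryo and yolk levels in TMM-scaled CPM (horizontal log axis), for all 51 embryo libraries (left) and for the 13 near the yolk ratio (right). Points are transcripts, coloured where edgeR's adjusted p was under 0.05: 0 and 2 on the left, 1239 and 160 on the right.

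The transcripts higher in the 13 embryos were many and their differences large, while those higher in yolk were fewer and differed less. The 1239 had a median log2 fold change of 3.66, or 3.57 with the 179 that had no yolk count set at the bound from 3 counts over the yolk group. With those bounds 1146 differed by at least 4-fold and 454 by at least 16-fold. The median of their mean levels was 108 CPM in the 13 embryos and 7.50 in yolk, and 150 of them averaged 1000 CPM or more in the embryos. Every one of the 13 embryos lay above the highest yolk library for 234 of them, against 234 of all 6219 tested. The 160 higher in yolk had a median log2 fold change of -1.75, with 49 at 4-fold or more and 0 at 16-fold. The median of their mean levels was 97.6 CPM in the 13 embryos and 283 in yolk, so most stayed measurable in embryos. All 13 embryos lay below the lowest yolk library for 28 of them, against 32 of all 6219 tested. These values come from the libraries that chose the transcripts and are a description. Of the 1239, 74 have counts that equal those of another model within binomial noise and may share reads with it. None of the 1239 was among the 113 transcripts high in the protist library. Few of those 113 entered the comparison, in which 6219 transcripts were tested with them kept and 6209 with them left out.

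Yolk lacked some of these transcripts at the depth reached. FW_v1_tr_00176 had no count among 1232634 counts of the 4 yolk libraries, which allows up to 2.43 CPM. It was found in all 13 embryos of the comparison, from 2.83 to 3420 CPM with a median of 226.5, and in 34 of all 51. Its mean of 599 ± 988 CPM (SD, n = 13) was at least 246-fold higher, with 3 counts over the yolk group as the floor (edgeR adjusted p = 0.0179). Without the highest library, stage 2 replicate 26, the mean of the other 12 was 364 ± 530 CPM, at least 149.6-fold higher. The call was lost without yolk replicate 2 or 3 (adjusted p = 0.0568 and 0.0610), with no filter on low counts (0.0529) and with the 8-fold limit (0.0699), and kept in the other 10 of 14 alternatives, with adjusted p from 3.34e-07 (DESeq2). FW_v1_tr_02313 had 1 count in yolk, in replicate 4, and ran from 5.66 to 8289 CPM in the 13 embryos with a median of 876. Their pooled ratio was 1502, with an exact 95% interval of 269 to 59315 for counting error only (log2 fold change 10.32, SE 2.08, edgeR adjusted p = 0.00269). Without stage 2 replicate 26, which held 8289 CPM, the pooled ratio was 901. Over the 10 stage 4 libraries the 2 transcripts averaged 16.3 ± 14.8 and 211 ± 257 CPM (SD). In the early embryos outside the 13, FW_v1_tr_02313 averaged 212 ± 324 CPM (SD, n = 38). That value and the stage 4 value rest on different TMM factors. Both transcripts stood at 0 in the 15 stage 8 libraries. Over the whole table, 67 of the 6279 transcripts found in at least 50% of the 51 embryos had no yolk count.

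Among those higher in yolk, FW_v1_tr_01957 stood at 23.5, 27.8, 79.4 and 149 CPM in yolk replicates 1 to 4 and ran from 0 to 16.2 in the 13 embryos with a median of 4.70 (log2 fold change -3.83, SE 0.78, edgeR adjusted p = 0.00191; -2.29 and 0.0963 with the 8-fold limit). FW_v1_tr_00452 stood at 400, 118, 86.0 and 85.8 in yolk and ran from 0 to 54.9 in the embryos with a median of 16.1 (log2 fold change -3.17, SE 0.71, edgeR adjusted p = 0.00329; -1.98 and 0.0631 without yolk replicate 1). The 13 embryos did not overlap with yolk in either transcript.

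The direction of these differences was then followed in libraries that had no part in the choice. With the upper range alone, 10 embryos against 3 yolk libraries, edgeR called 546 of 6639 transcripts higher in embryos (8.22%) and 17 higher in yolk (0.256%), or 8.48% in all. In the lower range the mean of its 3 embryos near the yolk ratio exceeded its 1 yolk library for 542 of the 546 (99.3%), against 68.2% of all tested transcripts. Their median log2 ratio there, on CPM + 1, was 4.98, against 1.80 for all tested. With all 27 lower-range embryos, chosen by no ratio, 532 of the 546 (97.4%) were higher than in the yolk library, against 67.7% of all tested, with medians of 4.02 and 1.57. Of the 17 higher in yolk, 12 (70.6%) were lower in the 3 embryos, against 31.1% of all tested, with a median log2 ratio of -1.17. The lower range has 1 yolk library and hence no test. That library had a count for 5095 transcripts. A transcript with no count there lies below the embryo mean with any read in any embryo. The 546 were chosen as low in the other yolk libraries, and all tested transcripts were not matched to them in yolk level. The part of this in the percentages was not tested.

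**Figure D4:**
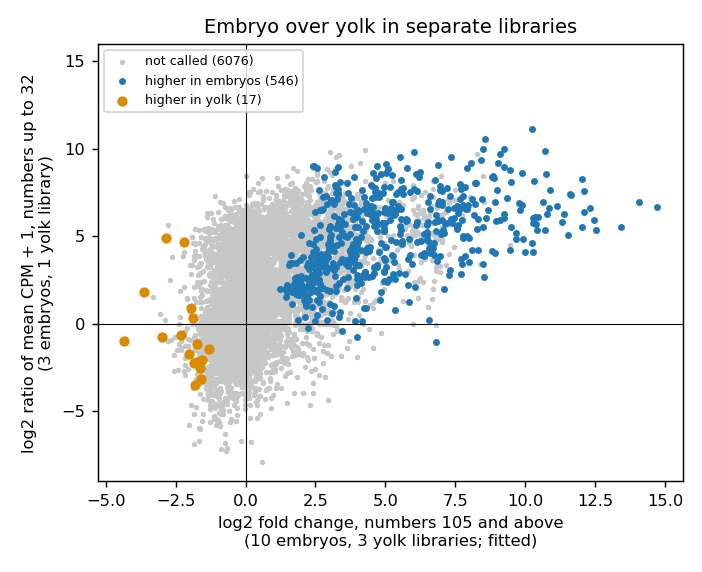
Log2 fold change of embryo over yolk in the upper range of sample numbers (horizontal axis, fitted, 10 embryos and 3 yolk libraries) against the log2 ratio of mean CPM + 1 in the lower range (vertical axis, 3 embryos and 1 yolk library). Points are transcripts, coloured by their call in the upper range; 542 of the 546 called higher in embryos lie above 0 in the lower range.

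The transcripts higher in the early embryo made up a large share of transcript counts in stages 4 to 6 as well, and those higher in yolk a small one. The 1239 took 8.83% ± 1.59 (SD, n = 4) of transcript counts in yolk. Their share was 34.5% ± 15.5 (SD, n = 29) at stage 2, and the 22 stage 3 libraries had 32.3% ± 15.8. These means include the 13 libraries that chose the transcripts, which averaged 43.6% ± 14.1. The other 38 early embryos averaged 30.1% ± 14.6 (35.9% ± 14.7 for 24 in the lower range and 20.1% ± 7.45 for 14 in the upper). Stages 1 and 4 to 8 had no part in the choice. The 4 yolk libraries did, so a low yolk share of the 1239 and a high one of the 160 follow from it. No set matched in level was followed beside them. The 6 embryos of stage 1 were not alike: replicates 1 to 3, from the lower range and with 8530 to 12942 transcript counts each, held 41.3%, 34.7% and 42.7%, while replicates 4 to 6 held 11.9%, 12.6% and 8.95%, close to or within the yolk range of 7.00% to 10.9%. In replicates 1 to 3, 16 transcripts of the 1239 took 23.1%, 14.2% and 27.6% of the counts. They are the 16 called higher in stage 2 or stage 3, of which 2 follow the spike-ins. One of these 2, FW_v1_tr_05647, averaged 52079 ± 64149 TMM-scaled CPM (SD) over the 6 stage 1 libraries. In the same libraries the 16 together averaged 10.9% of counts. The exact part of the 2 in each share was not computed. Of the 1239, stages 4, 5 and 6 held shares of 37.6% ± 8.90, 36.3% ± 4.25 and 38.0% ± 6.74 (SD over 10, 13 and 16 libraries). Stages 7 and 8 held 26.7% ± 1.29 and 23.3% ± 1.66 (SD over 16 and 15 libraries). The mean shares of stages 4 to 8 thus lay above that of yolk, a share that the choice itself made low. Transcripts high in the protist library made up 54.5% and 31.1% of stage 4 replicates 3 and 10, where the 1239 took 18.9% and 27.0%. All stage 4 means given here include both libraries. The 160 took 25.0% ± 3.39 of counts in yolk, against 10.9% ± 5.76 at stage 2 and 11.4% ± 5.73 at stage 3. In stage 1 the share was 6.34%, 8.32% and 9.74% in replicates 1 to 3, and replicates 4 to 6 held 28.9%, 21.8% and 26.2%, around the yolk range of 21.5% to 28.3%. Stages 4, 5 and 6 held 2.54% ± 1.14, 2.37% ± 1.41 and 2.09% ± 1.00, and stages 7 and 8 held 0.912% ± 0.0905 and 1.01% ± 0.126. No test was made across these stages, whose sample numbers differ, so that stage and range of numbers cannot be told apart beyond stage 3.

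**Figure D5:**
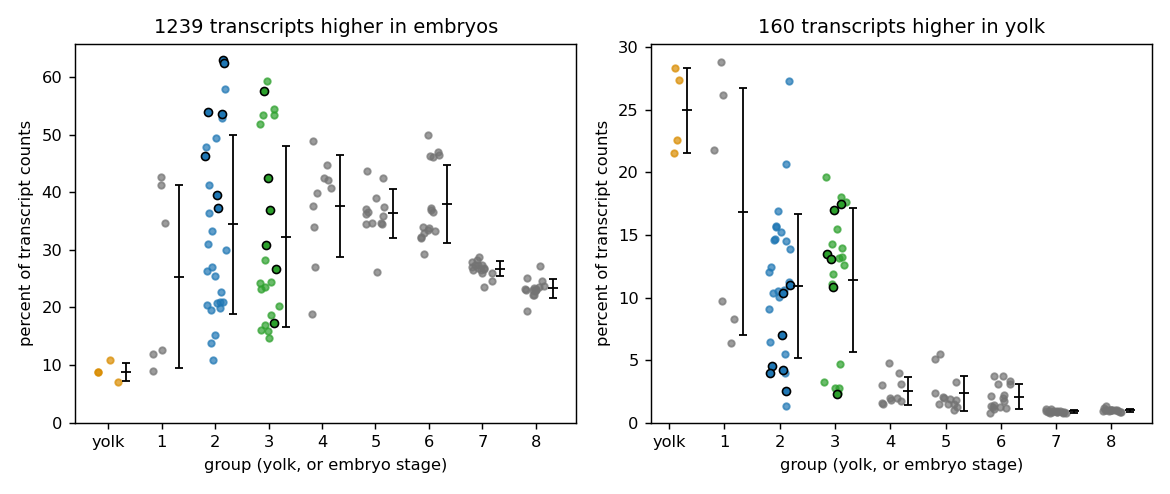
Percent of each library's transcript counts (vertical axis) taken by the 1239 transcripts higher in the 13 embryos (left) and by the 160 higher in yolk (right), in yolk and in embryos of stages 1 to 8. Points are libraries, bars are mean ± SD, and black outlines mark the 13 embryo libraries. The yolk libraries and these 13 chose both sets, so the yolk shares are low on the left and high on the right by that choice. The left set averages above its yolk share of 8.83% from stage 2 on. The stage 1 libraries divide into 3 high and 3 near yolk. On average the right set lies at 2.54% or less from stage 4 on.

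Among stages 1 and 4 to 8, 72.2% of the 1239 had their highest mean level in stages 4 to 6, against 46.6% of all 6219 tested transcripts. Another 22.4% had it in stage 7 or 8 (28.1% of all tested), and 5.41% in stage 1 (25.2% of all tested). Of the 160 higher in yolk, 67.5% had it in stage 1, whose mean joins its 2 unlike sets of 3 libraries. Of the 16 transcripts called higher in stage 2 or stage 3, 50.0% had their highest level in stages 4 to 6 and 50.0% in stage 1. The 16 include FW_v1_tr_05647 and FW_v1_tr_08312, which follow the spike-ins by the rule used, with unlike margins. The SD of the log2 count of FW_v1_tr_05647 was 0.80 per spike-in count and 3.27 per transcript count. For FW_v1_tr_08312 it was 2.67 and 2.75, so that transcript met the rule only narrowly. FW_v1_tr_05647 averaged 52079 CPM at stage 1, 2224 in the 13 embryos and 497 at stage 4. For 12 of the 16 (75.0%), the mean level in the 13 embryos was at least 4-fold above every stage from 4 to 8. The same held for 8.84% of all tested and 7.83% of the 1239. These shares describe lists chosen on early embryo libraries, and nothing was tested on them.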

How the data were processed

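The authors deposited a table of whole-number read counts per transcript model, spike-in RNA and HTSeq counter for 132 libraries, not normalized. Per the labels' protocols, single embryos were extracted with Trizol, amplified by CEL-Seq and treated with a duplex-specific nuclease. The submitters' processing notes list HTSeq 0.5.4p3, Bowtie2 2.1.0 and CASAVA 1.8. The build named there is Drosophila's, so no coordinates are given. The strand setting and the use of molecular identifiers are not given in the sources used here, so intervals cover counting error only.

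Of 15124 transcript models, 15121 were used: 3 that follow the spike-ins were left out, as were 92 spike-ins and 5 counters. Transcripts were tested with edgeR 4.0.16 in R 4.3.3 (TMM factors, filterByExpr, robust quasi-likelihood F test, Benjamini-Hochberg adjusted p under 0.05), with a term for the range of sample numbers. Standard errors are the log2 fold change divided by the square root of F. DESeq2 1.42.0 was an alternative. Single values were tested by exact permutation within ranges (81900 assignments). Log2 ratios without a fit used CPM + 1. The floor for a group with no count was 3 counts over the group. A transcript was said to follow the spike-ins where its log2 count varied less per spike-in count than per transcript count, among those averaging at least 20 counts. Protist-high transcripts had at least 50 CPM in the protist library and 20 times the level of yolk and of stages 7 and 8.

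Named transcripts were at most 2 that rose and 2 that fell per comparison, with at least 10 CPM in the higher group and found in 50% of its libraries in each range: by largest change over all early embryos and in the 13-embryo comparison, by highest level within stages, and by smallest p in the upper range, which gave none. The members, lists and tests were chosen with earlier results of these data known. The comparison of 13 embryos, its alternatives and the covariate fit were chosen after seeing the data. Alternatives were other scalings, filters, depths, tools and library sets, and each yolk library left out in turn.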

Additional observations from a re-analysis of the deposited data

Results flagged for a closer look

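In 17 groups of 4 yolk libraries, the gap of the most extreme library to its nearest neighbour, as a share of the group's range, was compared with its 95% critical value for 4 values. Chance exceeds it in about 1 of 20 groups of normally distributed values, a rate that need not hold for levels with many values of 0. The groups also share the same 4 libraries. Where 3 of the 4 values are 0 the gap is 1 by construction, as for FW_v1_tr_12089 and FW_v1_tr_02313. FW_v1_tr_00176, at 0 in all 4, has no gap. The critical value was exceeded for 9 results. The log2 ratio of transcript to spike-in counts was 2.55 in yolk replicate 1 and 5.68 to 6.28 in the others (gap 0.840). Yolk replicate 1 also stood apart for FW_v1_tr_14087 (0.932), FW_v1_tr_08674 (0.927), FW_v1_tr_05647 (0.898), FW_v1_tr_12089 (1), FW_v1_tr_06595 (0.858), FW_v1_tr_05691 (0.922) and FW_v1_tr_00452 (0.897), each time as the highest of the 4. For FW_v1_tr_02313 replicate 4 stood apart (1), with 1 count against 0. Replicate 1 is the only yolk library of the lower range, so the library and the range cannot be told apart. Of its 76822 counts, 9 were of FW_v1_tr_12089, a transcript with 0 counts in the other 3 yolk libraries.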

How the results depend on the processing

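No paired analysis was possible because the replicate numbers follow only the order of deposition. Over all early embryos, the calls higher in embryos and in yolk were 1 and 7 with RLE size factors, 2 and 2767 with spike-in totals, 262 and 55 with DESeq2, 4 and 5 with at least 10 counts in 50% of a group, 15 and 12 after thinning, 260 and 300 with all groups in 1 fit, 1239 and 160 in the 13 embryos and 1279 and 113 with the covariate. Upper-quartile factors gave 1 in embryos, leaving out libraries under 25% of the median depth gave 1 in embryos, no filter gave 32 in yolk, and no number term gave 0 in yolk. Leaving out each yolk library gave 0 in embryos and 0 to 9 in yolk. For stage 2, DESeq2 gave 257 and 63, no filter 68 in yolk, no number term 2 and 1, and leaving out yolk libraries 0 to 5 and 0 to 4. For stage 3, RLE gave 3 in yolk, DESeq2 546 and 66, no filter 23 and 51, no number term 0 and 0, and leaving out yolk libraries 0 to 18 and 0 to 18. In the upper range DESeq2 gave 264 and 7, and no filter 9 in yolk. For the 13 embryos, spike-in totals gave 413 and 2759, an 8-fold limit 498 and 105, a 2-fold limit 69 in yolk, no filter 95 in yolk, stage 3 alone 576 and 22, stage 2 alone 331 in yolk, and leaving out yolk libraries 781 to 1044 and 19 to 58. The 2-fold limit and stage 3 alone held only upper-range embryos. Those fits kept yolk replicate 1 of the lower range and carried no number term.

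The log2 RNA ratio difference was -3.33 to -2.58 without single yolk libraries. The difference in detected transcripts was 37.8 in stage 3 alone (exact permutation p = 0.904) and -205 to -30.9 without single yolk libraries. The share of the highest transcripts differed by -7.69 points without libraries under 25% of the median depth (p = 0.0326), -8.12 in stage 3 alone (p = 0.0444), -9.65 for the 10 highest (p = 0.00547), all by exact permutation, and -8.88 to -3.86 without single yolk libraries. FW_v1_tr_05647 turned to -0.36 with spike-in totals, and FW_v1_tr_06595 to 1.01 in stage 2 and 1.78 over both stages without the number term. The cause of the other moves was not tested. With 4 yolk libraries, 1 of them alone in its range, and early embryos as shallow as 14491 counts, small differences were not detectable.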
